A study of Mus musculus with 33 samples.

Results

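T cells in bone of mice labelled iia-injection were the 476 cells, of 22362 kept cells in that pooled library and 77728 kept cells in the whole series, that held messenger RNA of the T cell receptor complex. A barcode was assigned to a sample when its top hashtag reached 10 counts and exceeded the next one 3-fold. It was kept with 500 or more gene UMIs (unique molecular identifiers, each counting 1 captured RNA molecule), a minimum of 200 genes, and no more than 15% of UMIs from mitochondrial genes. A kept cell was called a T cell if it had a UMI of Cd3e, Cd3d or Cd3g and a UMI of Trac or Trbc2, and none of the B cell gene Cd79a or the neutrophil granule gene Ltf. The cells were therefore chosen on measured values, and every contrast of T cells with other cells below is a description without a test.

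A T cell recognises antigen through a receptor made of alpha and beta chains, whose constant parts are encoded by Trac, Trbc1 and Trbc2, or of gamma and delta chains. The receptor signals through the Cd3 proteins, and the co-receptors CD8 and CD4 divide most alpha-beta T cells into cytotoxic and helper lineages. Bone marrow makes the precursors that mature in the thymus and also takes up circulating and memory T cells, among them many CD8 memory cells.

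The study used SAMENT, a niche labelling method in which cells near the labelling cells acquire biotin, and sorted the bone cells after overnight substrate labelling (about 10 hours) into biotin positive and biotin negative fractions. The pooled library combined 12 hashtagged mouse bone samples, 6 biotin positive and 6 biotin negative, numbered 1 to 6 in each sort. All 12 shared the iia-injection treatment, so no uninjected bone entered, and strain, age, sex and the injected cells are not given in the labels of this sample. The labels do not say which samples came from 1 mouse, so p-values measure the spread between hashtagged samples. Bone samples of the intracardiac experiment, 4 biotin positive and 4 biotin negative from mice with an intracardiac injection, were used for side-by-side values. Those were read from the 3 prime end and the iia-injection library from the 5 prime end, so experiment and chemistry cannot be told apart.

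Each T cell was placed in its sample by 1 of 12 antibody hashtags, which are printed here because the assignment of the 21 T cells of the positive sort rests on them. Any 2 of these 15-base oligos differed at 7 or more positions.
positive 1, C0301: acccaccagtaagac
negative 1, C0302: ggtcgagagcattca
positive 2, C0303: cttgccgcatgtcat
negative 2, C0304: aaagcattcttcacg
positive 3, C0305: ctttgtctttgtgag
negative 3, C0306: tatgctgccacggta
positive 4, C0307: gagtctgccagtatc
negative 4, C0308: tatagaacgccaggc
positive 5, C0309: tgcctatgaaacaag
negative 5, C0310: ccgattgtaacagac
positive 6, C0311: gcttaccgaattaac
negative 6, C0312: ctgcaaatataacgg
The top hashtag exceeded the second by a median of 51.2-fold in T cells of the positive sort and 46.7-fold in T cells of the negative sort. A ratio under 10 was found in 2 of the 21 positive and 33 of the 455 negative T cells. Just inside the threshold lay 14 T cells with a ratio of 3 to 5, and just outside it 14 cells that met the gene rule with a ratio of 2 to 3.

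The genes of the rule lie in a few places of the mouse genome (GRCm38, GENCODE M21 gene bounds). Cd3g (chr9:44969572-44980431), Cd3d (chr9:44981786-44987339) and Cd3e (chr9:44998740-45009627) are neighbours on chromosome 9. Trac (chr14:54220521-54224206) encodes the alpha constant region, and Trbc1 (chr6:41538218-41539881) and Trbc2 (chr6:41546730-41548352) encode the beta constant regions. Across the 20 genes of a T cell receptor signalling list that took no part in the rule, T cells of both sorts had UMIs of a median of 8, against 1 in the 21886 other kept cells and 1 in 1396 B cells. B cells were cells with UMIs of Cd79a and Cd79b and none of Cd3e, Cd3d, Cd3g, Trac or Trbc2, so cells with such RNA were left out of them. At least 5 of the 20 were detected in 20 of 21 positive T cells, 425 of 455 negative T cells and 562 of the other cells. The label T cell was therefore borne out by genes outside the rule in most cells of both sorts.

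**Figure D1:**
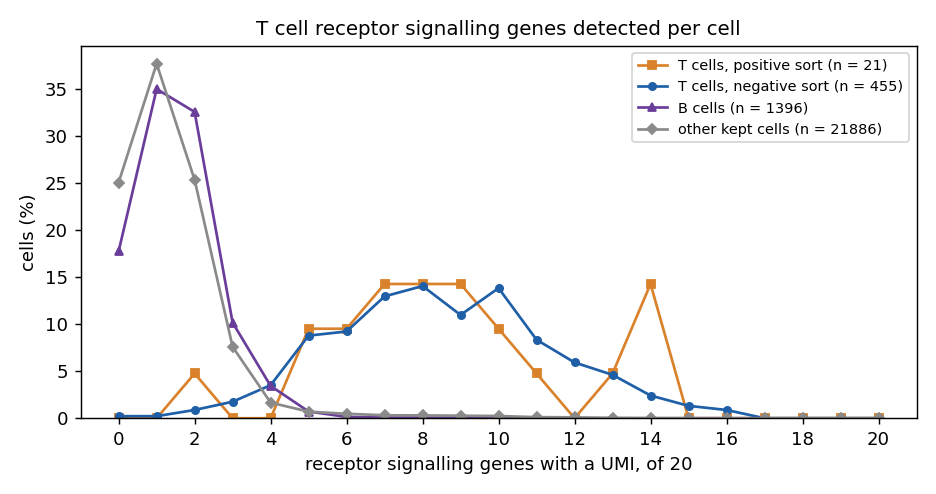
Percentage of cells (vertical axis) by the number of T cell receptor signalling genes with a UMI, of 20 (horizontal axis), for T cells of each sort, B cells and the other kept cells. Both T cell curves lie around their median of 8 genes, while B cells and other cells lie around 1.

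The edges of the definition were uneven. Cd3d alone was a weak marker in this library, with a UMI in 16.5% of neutrophil-lineage cells (those with Ltf and Ngp), against 0.368% for Cd3e. Of 2137 kept cells that had a Cd3 UMI without Trac or Trbc2, 1697 also had Ltf. The exclusion removed 66 cells for Ltf alone and 13 for Cd79a alone. At the lower edge, 55 T cells had exactly 1 Cd3 UMI and 1 Trac or Trbc2 UMI, and 85 cells with Cd3 and only Trbc1 stayed outside. The largest T cell held 41712 UMIs, 10 T cells held over 10000, and no doublet caller was run. RNA of other cells was present in T cells: S100a8, a neutrophil alarmin gene, had a UMI in 77.4% of negative T cells and 79.7% of negative B cells, and Elane, a granule protease gene, in 57.8% and 62.1%. A UMI of Cd79b, Ms4a1, C1qa, C1qb, C1qc, Csf1r, Mcpt8 or Siglech, 8 markers of B cells, phagocytes, basophils and plasmacytoid dendritic cells, was present in 5 of 21 positive and 22 of 455 negative T cells. Other genes of those cell types, which are not among the 8, were in more T cells: Ighm was in 8 of the 21 and in 25.9% of the 455, and Lyz2 in 6 of the 21 and in 17.1%.

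T cells made up a smaller share of the biotin positive cells than of the biotin negative cells. In positive samples 1 to 6 they were 0.236% (1 of 423 cells), 0.206% (1 of 485), 0.314% (3 of 955), 2.01% (5 of 249), 0.327% (7 of 2140) and 0.628% (4 of 637). In negative samples 1 to 6 they were 2.96% (77 of 2599), 2.34% (63 of 2693), 1.85% (43 of 2322), 3.64% (112 of 3073), 2.93% (102 of 3480) and 1.75% (58 of 3306). The sorts overlapped through 1 sample: positive 4 lay above negative 3 and negative 6, and its 5 cells gave a wide exact 95% interval of 0.655% to 4.62% (counting error only). The means were 0.620% ± 0.696 (SD, n = 6) and 2.58% ± 0.731 (SD, n = 6), a difference of -1.96 percentage points, positive minus negative (two-sided exact permutation test over 924 assignments, p = 0.00649; smallest possible p, 0.00216). The share was lower in the positive sample of all 6 same-numbered pairs.

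**Figure D2:**
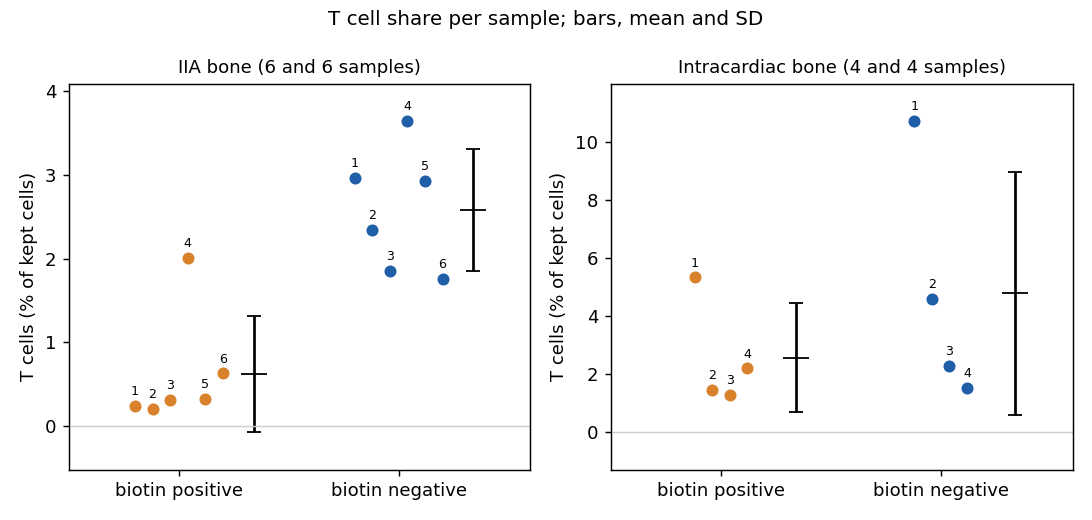
T cells as a percentage of kept cells (vertical axes, different scales) in each hashtagged sample, numbered, with mean and SD as bars. In the iia-injection bone, 5 of the 6 positive samples lie below every negative sample and positive 4 lies at 2.01%. In the intracardiac bone the sorts overlap.

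Cell composition and depth moved with the same contrast. Phagocytes (at least 2 of C1qa, C1qb, C1qc, Csf1r and Adgre1) were 17.0% ± 14.4 of positive and 3.52% ± 0.639 of negative cells, and the median UMIs per kept cell ranged from 3641 to 10766 in positive and from 2532 to 3991 in negative samples. With phagocytes left out of the denominator, a choice made after seeing the data, T cells were 0.715% ± 0.751 and 2.68% ± 0.766 (SD, n = 6 each). T cells themselves had sample medians of 1593 to 3706 UMIs in positive and 1816.5 to 2403 in negative samples. Thinning to 1000 UMIs left out the cells below that depth, 379 of 4889 positive and 1010 of 17473 negative cells. Among the thinned cells the T cell shares were 0.385% ± 0.491 and 1.5% ± 0.463, and the difference kept its direction and its side of the threshold. With those cells left out and no thinning, the difference was -2.02 percentage points.

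B cells were also a smaller share of the positive cells, at 2.59% ± 2.25 against 7.53% ± 3.83 (two-sided exact permutation test, p = 0.0173, n = 6 each). T cells as a percentage of T and B cells together ranged from 8.57% to 28% (median 18.5%) in positive and from 20.3% to 39.4% (median 26.4%) in negative samples, and the ranges overlapped. This difference of -8.33 percentage points did not pass (two-sided exact permutation test, p = 0.0779, n = 6 each; a comparison added after seeing the data). It reached p = 0.0346 without positive 5 (exact permutation test), so 1 sample decided its side of the threshold. NK cells, taken as cells with Ncr1 and Nkg7 and no Cd3 UMI, were few, 11 in the positive and 90 in the negative sort. They were 0.274% ± 0.413 and 0.528% ± 0.270 of kept cells, a difference of -0.25 percentage points that did not pass (two-sided exact permutation test, p = 0.234, n = 6 each; also added after seeing the data). Positive 2 held 5 of the 11 NK cells of the positive sort, and the NK test was not repeated without each sample in turn. The direction was lower for all 3 lymphocyte classes, and only T and B cells passed.

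In the intracardiac bone, the same gene rule found 693 T cells. They were 5.33%, 1.47%, 1.29% and 2.20% of positive samples 1 to 4 and 10.7%, 4.59%, 2.29% and 1.51% of negative samples 1 to 4. The number 1 samples were highest in both sorts, and the sorts overlapped. The difference was -2.20 percentage points (two-sided exact permutation test over 70 assignments, p = 0.40; smallest possible p, 0.0286), and -0.227 points without negative 1, so its size rested on that sample. The positive minus negative difference was -1.96 ± 0.634 points over 6 same-numbered iia-injection pairs and -2.20 ± 2.63 points over 4 intracardiac pairs. The test of one against the other gave p = 0.838 (two-sided exact permutation over 210 assignments of pairs, taking samples by shared number), with the spread of the intracardiac pairs wider than either mean. The difference between the experiments was 0.243 points and turned sign without intracardiac pair 1 (-0.815) or pair 2 (-0.0634).

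Within the T cells, 20 genes were highest over the other negative cells by the naming rule. Levels here are CPM, a gene's UMIs summed over the T cells of a sample and scaled to a total of 1e+06, and differences are means over the 6 negative samples of log2(CPM + 10). Of 9456 genes tested for a level, 10.2% were higher in T cells by a mean of at least 2-fold and higher by any amount in 6 of 6 samples. By the same rule, 8.49% were lower by a mean of at least 2-fold and lower in 6 of 6. The 20 included the receptor genes of the rule itself (Trbc2, Cd3e, Trac and Cd3g), the proximal signalling genes Lck, Skap1, Prkcq, Cd247 and Themis, and the lineage factor Bcl11b. Of the 20 signalling list genes, 20 were higher by that measure, with a median difference of 3.49 against 0.22 over all tested genes. Thymocyte precursor genes were near 0: Rag1, which cuts receptor genes for assembly, and Ptcra, the surrogate alpha chain, had no UMI in the 455 negative T cells, while 11% of negative B cells had Rag1.

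Ccl5, a chemokine stored and released by memory and effector T cells, stood second in that order. Its level ranged from 1573 CPM in negative 3 to 5682 CPM in negative 5, with a median of 2915, against a mean of 64.3 CPM in the other negative cells, and the difference was 5.38 ± 0.71 (SD, n = 6). It had a UMI in 68.1% of T cells, 3.02% of other cells and 0.920% of B cells, at median depths of 2118 UMIs per negative T cell and 1798 per B cell. Il2rb, a receptor chain for interleukin 2 and 15, ranged from 434 to 832 CPM (median 767), and 64.0% of T cells had a UMI against 0.766% of B cells. Tox, a factor of late effector and exhausted T cells that is also used during thymic development, ranged from 391 to 914 CPM (median 505), and the highest value was again that of negative 5. Gm2682 (chr15:60120540-60187408), annotated as a long non-coding RNA, was in 74.7% of T cells and 0.230% of B cells. Gimap3 and Gimap4, lymphocyte survival GTPase genes, were in 70.5% and 61.3% of T cells and also in 15.8% and 13.9% of B cells.

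Effector genes were uneven in how widely they were detected. Of the 17 cytotoxic effector genes, 11 were higher in T cells by a mean of at least 2-fold and higher in 6 of 6 samples, beside 10.2% of all tested genes. The median difference was 2.08 over the list against 0.22. Nkg7, a granule membrane gene, had a UMI in 69.7% of T cells, and Ctsw, a cathepsin of killer lymphocytes, in 46.8%. The killing molecules proper were sparse: Prf1 (perforin) was in 12.5%, Gzmb in 8.35%, Gzmk in 8.79% and Gzma in 2.42% of T cells. Ifng, the gene of interferon gamma, was in 8.57%. Among memory and residency genes, Cxcr6, a homing receptor, was in 26.6% of T cells (103 to 215 CPM, median 176) and Cxcr3 in 18.9%, while Itgae, an adhesion chain of tissue-resident cells, was in 1.98%. B cells held each of these at 0.383% or below, except Nkg7 at 13.4% and Ctsw at 1.07%.

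Naive-cell genes were detected to different extents. Tcf7 and Lef1, paired factors of naive and memory T cells, were in 34.3% and 32.5% of T cells, and Il7r, a survival receptor, in 32.1%. Of these, Tcf7 was the one largely missing from B cells (0.307%), whereas Lef1 was in 17.5% and Il7r in 23.0% of them. Foxp1, a quiescence factor, was in 66.2% of T cells and Bach2, a repressor of effector genes, in 39.6%, but B cells held them in 92.2% and 85.4%. Of the 12 naive genes, 5 were higher in T cells by a mean of at least 2-fold and higher in 6 of 6 samples, beside 10.2% of all tested genes.

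**Figure D3:**
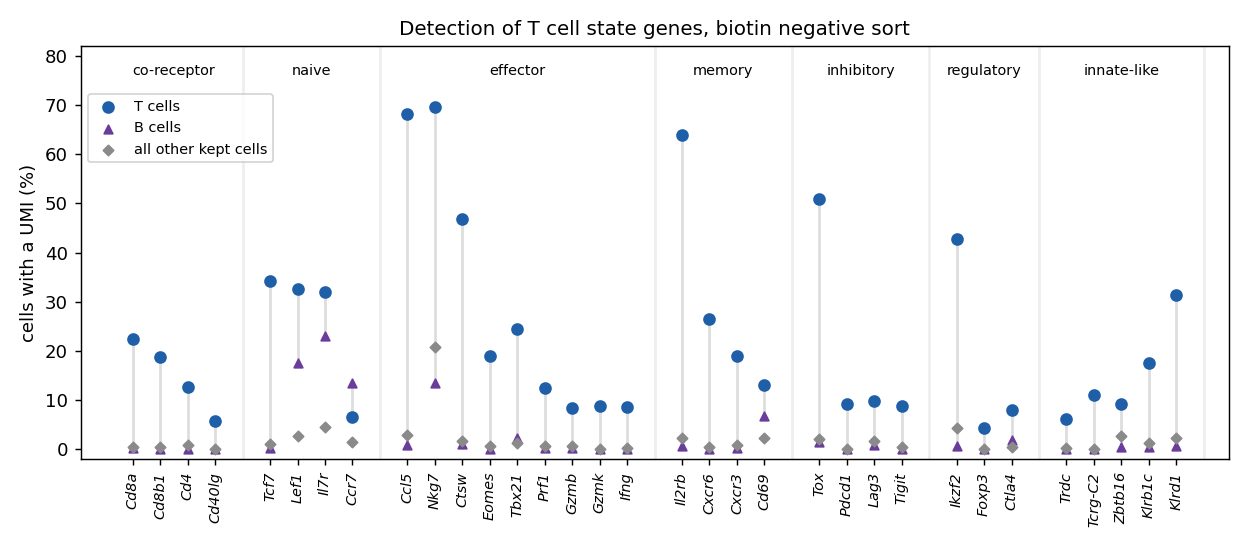
Percentage of negative-sort cells with at least 1 UMI of each gene (vertical axis) in T cells, B cells and all other kept cells, with genes grouped by role. Ccl5, Nkg7 and Il2rb were each in over 60% of T cells, and Ccr7 was the one gene shown that more of the B cells than of the T cells held.

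Counting state genes together in each cell gave the shares of T cell states. UMIs of at least 2 of Ccl5, Nkg7, Gzma, Gzmb, Gzmk, Prf1 and Ctsw marked 68.4% of the 455 negative T cells as cytotoxic (exact 95% interval 63.9% to 72.6%), against 0.645% of B cells. Sample values ran from 48.8% in negative 3 to 77.6% in negative 6, with a median of 67.1%. Cytotoxic is a name for this rule only: Ccl5 was in 68.1%, Nkg7 in 69.7% and Ctsw in 46.8% of T cells. Prf1 was in 12.5%, Gzmk in 8.79%, Gzmb in 8.35% and Gzma in 2.42%. UMIs of at least 2 of Ccr7, a homing receptor gene, Lef1 and Tcf7 marked 81 as naive (17.8%, interval 14.4% to 21.6%), against 2.36% of B cells, and sample values ran from 6.86% in negative 5 to 31.2% in negative 1 (median 19.6%). The classes were not exclusive: 50 cells carried both, 31 were naive only, 261 were cytotoxic only and 113 were neither. Thinned to 1000 UMIs per cell, the mean shares fell to 51.6% cytotoxic and 5.97% naive, so both shares depend on depth.

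By co-receptor genes, 132 of the 455 negative T cells were CD8 (Cd8a or Cd8b1 and no Cd4), 58 were CD4 and 265 had neither, while 0 had both. B cells with a co-receptor UMI were 0.215% for CD8 and 0.143% for CD4. These B cells were picked for having no Cd3, Trac or Trbc2 UMI, so their values can understate free T cell RNA. The share with neither rose from a mean of 59.7% to 75.3% when cells were thinned, so it depends on depth. CD8 cells were the larger part in 5 of 6 samples: of cells with 1 co-receptor, they were 77.3% (17 of 22), 73.1% (19 of 26), 66.7% (10 of 15), 87.9% (51 of 58), 33.3% (15 of 45) and 83.3% (20 of 24) in negative samples 1 to 6. Negative 5 stood apart, with an exact 95% interval of 20.0% to 49.0%. After thinning the mean of this share was 69.6% against 70.3% before.

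**Figure D4:**
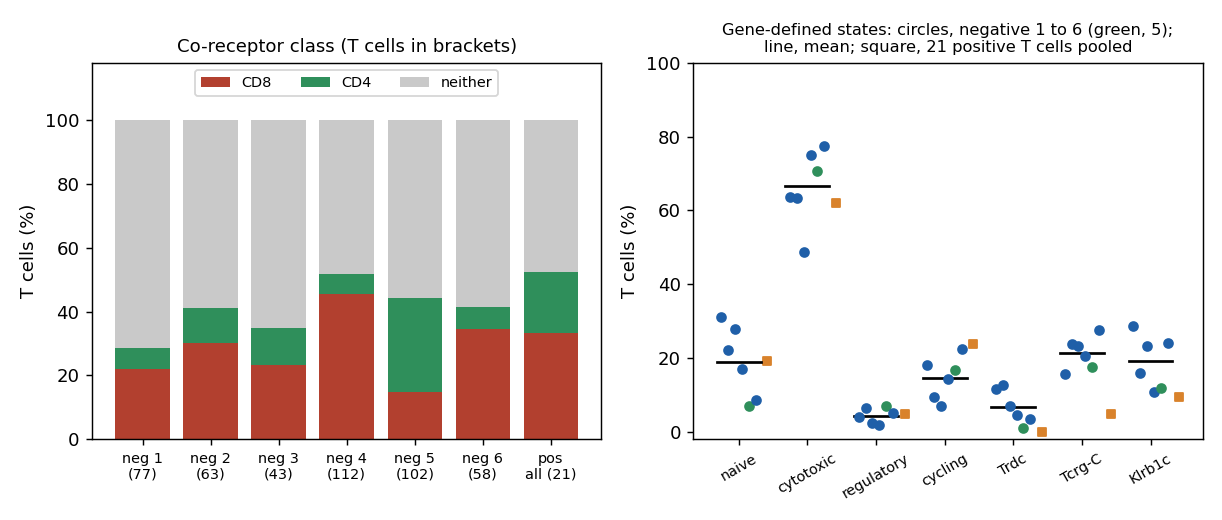
Left, percentage of T cells that were CD8, CD4 or neither in each negative sample and in the pooled 21 positive T cells, with T cell numbers in brackets. Right, percentage of T cells in each gene-defined state, with negative 5 in green. CD4 cells are 29.4% of the T cells of negative 5 and 6.25% to 11.6% of those of the other negative samples.

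CD8 and CD4 cells differed in more than the genes that defined them. Cytotoxic cells were 107 of 132 CD8 (81.1%, exact interval 73.3% to 87.4%) and 28 of 58 CD4 cells (48.3%, interval 35.0% to 61.8%), and naive cells were 37 (28%) and 5 (8.62%). Both states together were found in 23 CD8 cells and 0 CD4 cells. The CD4 values rested on negative 5, which held 30 of the 58 CD4 cells: without it, 7 of 28 CD4 cells were cytotoxic (25%, interval 10.7% to 44.9%) and 5 of 28 naive (17.9%), against 92 of 117 (78.6%) and 36 of 117 (30.8%) CD8 cells. Pooled over the negative samples, the genes highest in CD8 over CD4 cells were Cd8a, Cd8b1, Gm44174, Ifitm3, Fgf13, Hid1, Gm42047, Crtam, Gzmm and Tmem108. Gm44174 is a non-coding RNA on the same strand between both CD8 genes (Cd8b1 chr6:71322788-71337494, Gm44174 chr6:71353035-71373284, Cd8a chr6:71373427-71379173), and reads of the neighbouring genes may be shared with it. Gm44174 had 86 UMIs in CD8 cells and 0 in CD4 cells. Ifitm3, an interferon-induced antiviral gene, had 154 UMIs in 11.4% of CD8 cells and 7 UMIs in 12.1% of CD4 cells and was higher in CD8 in 4 of 6 samples, so its place rested on few cells. Fgf13, a growth factor family gene, was in 43.2% of CD8 and 6.90% of CD4 cells and was higher in CD8 in 6 of 6 samples. Ly6c2, a surface gene of CD8 memory cells, was in 65.9% and 29.3%.

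Genes highest in CD4 over CD8 cells were Cd4, Retnlg, Cd40lg, Nebl, Mmp9, Mctp1, Diaph3, Il2ra, Pde4d and Nrgn. Cd40lg, the helper signal to B cells, was in 12.1% of CD4 and 0 of 132 CD8 cells, and Il2ra, the alpha chain of the interleukin 2 receptor, was in 15.5% and 0.758%. Icos, a costimulatory receptor of helper cells, was in 37.9% of CD4 and 11.4% of CD8 cells and higher in CD4 in 6 of 6 samples. Retnlg and Mmp9 are neutrophil genes: Retnlg had 162 UMIs in CD4 cells spread over 10.3% of them, against 8.33% of CD8 cells with 38 UMIs, and was higher in CD8 in 4 of 6 samples. Its place in the order therefore rested on few cells. These subset contrasts have no test, since the genes and the cells they were measured in were chosen together.

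The CD4 cells of negative 5 differed from those of the other negative samples in effector and inhibitory genes. The genes given here were chosen after their values were seen, and 1 sample carries them, so no test was made. Eomes, an effector and memory factor, had a UMI in 11 of 30 CD4 cells of negative 5 and in 0 of 28 CD4 cells of the other samples. Gzmk was in 12 against 1, Lag3 in 14 against 2, Tox in 25 against 9 and Ccl5 in 21 against 5. The opposite held for Tcf7, found in 1 of 30 against 11 of 28, and Cd40lg, found in 1 against 6. Foxp3 was in 3 against 2. Values in the other cells of negative 5 were also higher for Lag3, Eomes and Gzmk, with no test. Lag3 was in 3 of 15 against 10 of 117 CD8 cells. Eomes was in 7 of 15 CD8 cells of negative 5 against 30 of 117 in the other samples, and in 15 of 57 against 23 of 208 cells with neither co-receptor. Gzmk was in 3 of 15 against 13 of 117 CD8 cells and in 7 of 57 against 4 of 208 cells with neither.

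**Figure D5:**
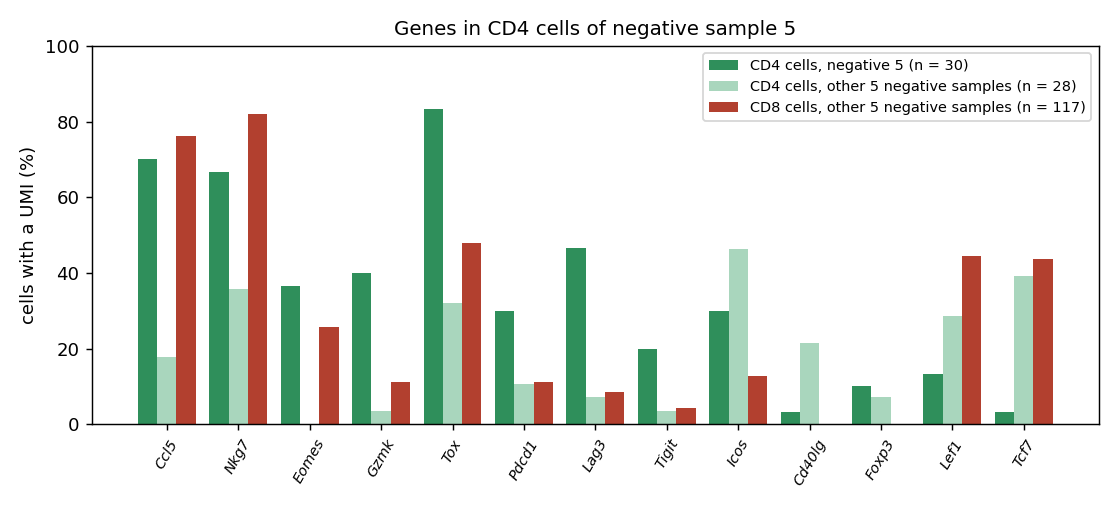
Percentage of cells with a UMI of each gene (vertical axis) in the CD4 cells of negative 5, the CD4 cells of the other 5 negative samples and the CD8 cells of those 5 samples. Eomes is in 36.7% of the CD4 cells of negative 5 and 0% of the other CD4 cells, and Tcf7 is in 3.33% and 39.3%.

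Negative 5 had the highest T cell level of many genes in the same lists. Of 17 cytotoxic effector genes it was highest in 10, of 12 inhibitory receptor genes in 6 and of 16 cell cycle genes in 10, whereas over all 9417 genes detected it was highest in 15.3%. It was highest in 0 of 12 naive genes. It was also highest in 4 of 5 basophil markers, of whose 105 UMIs 104 lay in 1 T cell of negative 5. None of its CD4 cells held a basophil marker. Eomes ranged from 20.0 to 209 CPM (median 61.3) and Gzmk from 0 to 128 CPM (median 28.1), and the highest value of each was that of negative 5. Naive genes were highest in negative 3 for 7 of 12, a sample that was highest in 1915 of all 9417 genes.

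T cells with neither co-receptor included cells with gamma-delta and innate-like genes. Trdc, the delta constant gene, had 63 UMIs in these 265 cells and 1 in the 190 CD8 or CD4 cells. It was in 27 of the 265, a Tcrg-C gamma constant gene was in 74, Klrb1c (the NK receptor NK1.1) in 71 and Zbtb16 (PLZF, the factor of innate-like T cells) in 39. Trdc and Klrb1c were together in 17 cells, while 133 cells had none of these 4 features. Ikzf2, the Helios gene, was in 54.3% of cells with neither co-receptor and 26.8% of CD8 and CD4 cells, higher in 6 of 6 samples. Themis, a factor of conventional alpha-beta selection, went the other way, in 25.7% and 57.4%, lower in 6 of 6. Because the rule asked for Trac or Trbc2, gamma-delta cells without a UMI of either were left out, and these counts do not measure all gamma-delta cells.

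Trdc varied between samples. Its share of T cells was 11.7%, 12.7%, 6.98%, 4.46%, 0.980% and 3.45% in negative samples 1 to 6, a mean of 6.71% ± 4.67 (SD, n = 6), against 0.0716% of B cells. Negative 1 and 2 were highest and negative 5 lowest, at 1 of 102 cells. Klrb1c ran from 10.7% to 28.6% (median 19.6%) and was lowest in negative 4. Regulatory T cells, those with Foxp3, were 20 of 455 (4.40%, exact interval 2.71% to 6.71%), and sample values lay between 1.79% and 6.86%. These shares depend on depth: thinned to 1000 UMIs, the mean over samples was 2.12% against 4.40% for Foxp3, 11.4% against 19.1% for Klrb1c and 9.14% against 14.7% for the cycling genes Mki67 and Top2a. Of these 20, 5 were CD4, 15 had neither co-receptor and 0 of 132 CD8 cells had a Foxp3 UMI (exact upper bound 2.76% for cells with a UMI, not for cells expressing the gene). Cycling cells, with Mki67 or Top2a, were 69 of 455 (15.2%), ranging from 6.98% in negative 3 to 22.4% in negative 6, and were fewer among T cells than among B cells (30.7%). Since B cells held these genes in that share, it is no measure of free RNA for cycling.

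The 5 prime reads also reached some receptor variable genes. A leading Trbv gene was found in 58 T cells, of which 3 had at least 2 UMIs of it, and 17 of the 35 Trbv genes led in some cell. Trbv12-2 led in 9 cells, Trbv19 in 8, Trbv12-1 in 6, and Trbv1 and Trbv15 in 5 each. Trbv12-2 was found in 5 of the 6 negative samples, and no gene led in more than 3 cells of 1 sample. Near-identical Trbv genes can share reads, so these names are uncertain.

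The 21 positive T cells gave few values for their state. Pooled, 7 were CD8, 4 CD4 and 10 neither. Cytotoxic cells were 13 of 21 (61.9%, exact interval 38.4% to 81.9%) and naive cells 4 (19.0%, interval 5.45% to 41.9%), beside pooled negative values of 68.4% and 17.8%. The 21 cells came from samples with 1 to 7 T cells each, so pooled intervals are no test of the sorts. Cycling cells were 5 (23.8%, interval 8.22% to 47.2%), a Foxp3 UMI was in 1, and a Trdc UMI in 0 (exact upper bound 16.1%, again for cells with a UMI). No positive sample held 10 T cells, the minimum set for a test of shares, so differences in state between the sorts were not tested. Intervals cover counting error only.

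Summed counts of T cells were compared between sorts in the samples with at least 3 T cells, a limit set after seeing the data (positive 3, 4, 5 and 6 against all 6 negative samples). The edgeR quasi-likelihood test called 0 of 2623 genes (0%) at a Benjamini-Hochberg adjusted p under 0.05, with 278 at an unadjusted p under 0.05, and DESeq2 called 1, Ctsb. The same edgeR test called 49.7% of 12964 genes in the other kept cells of the same samples, which held far more UMIs. Ctsb, a lysosomal protease gene, had means of 487 CPM in positive and 113 CPM in negative T cells, a log2 difference of 2.07 ± 0.46 (SE, adjusted p = 0.296 in edgeR). The other genes with the smallest p on the higher side were Ctsc (2.23), Mapre2 (1.72), Fth1 (1.61) and Psap (1.36), and on the lower side mt-Co2 (-0.74), Btg1 (-1.56), Cd52 (-0.97), Cdk17 (-2.52) and Junb (-1.70), none of which passed. Of the T cell lists, no gene was called in any, among them 0 of 18 measured signalling genes and 0 of 8 measured cytotoxic genes. These edgeR counts are of the main setting. With a replicate block edgeR called 1 gene, S100a8 (lower), and with no filter on low counts it called 319 of 14791.

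Markers of other cells moved with this comparison. The 10 neutrophil markers took 0.149% to 0.956% of the UMIs of positive T cells (median 0.498%) and 0.282% to 3.27% of those of negative T cells (median 1.25%). In the other kept cells the same markers took a median of 7.34% in positive and 24.3% in negative samples. Ltf, 1 of these markers, is 0 in every T cell by the rule, which lowers the T cell values. The 10 phagocyte markers took 0.0997% to 0.484% of the UMIs of positive T cells (median 0.132%) and 0.0927% to 0.273% of those of negative T cells (median 0.131%). They include Ly6c2, also a gene of CD8 memory cells, with a median of 1058 CPM in negative T cells. The sum is therefore no measure of phagocyte RNA alone. C1qa had 18 UMIs in 2 positive T cells against 1 UMI in the 455 negative T cells. Cd79a, 1 of the 9 B cell markers, is likewise 0 in T cells by the rule. The 9 B cell markers took 0% to 0.191% of the UMIs of positive T cells (median 0.0527%) and 0.0104% to 0.0301% of those of negative T cells (median 0.0193%). Of these, Igkc was in 6 and Cd79b in 3 of the 21 positive T cells, against 8.57% and 1.54% of negative T cells, while Ms4a1 was at 0 in both sorts. The 4 platelet markers took 0% to 0.345% of the UMIs of positive T cells (median 0%) and 0.00113% to 0.00281% of those of negative T cells, and Pf4, a platelet chemokine gene, had 67 UMIs in 1 positive T cell against 12 UMIs in the 455 negative T cells. The part of these markers in the values of Ctsb and the other genes was not tested.

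State shares of negative T cells were set beside those of the intracardiac bone, where 544 negative T cells were read at greater depth. Thinned values leave out 20 of the 455 and 2 of the 544 T cells, which had under 1000 UMIs. CD8 cells were 28.4% ± 10.8 of T cells in the iia-injection bone (n = 6) and 32.7% ± 9.81 in the intracardiac bone (n = 4), or 17.3% ± 9.33 and 20.3% ± 8.32 after thinning to 1000 UMIs. Cytotoxic shares were 66.5% ± 10.4 and 58.3% ± 18.0, and naive shares 19.0% ± 9.97 and 36.4% ± 20.3. Thinned to 1000 UMIs, they were 51.6% ± 13.2 and 39.7% ± 21.9 cytotoxic, and 5.97% ± 5.66 and 11.7% ± 9.71 naive. Cycling shares were 14.7% ± 5.69 and 6.71% ± 2.62, or 9.14% ± 5.63 and 3.23% ± 1.01 after thinning. Trdc shares were 6.71% ± 4.67 and 6.79% ± 3.87, or 4.99% ± 4.38 and 2.65% ± 2.29 after thinning. None of these was tested between the experiments, whose library chemistry differed.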

How the data were processed

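Gene and hashtag UMI counts were deposited by the authors as filtered matrices, not normalized. Cell Ranger, Seurat and mm10 are named in the submitters' processing notes, and the file headers give Cell Ranger 7.1.0 for the iia-injection library and 6.1.2 for the intracardiac samples. Hashtag features were matched to the deposited sample names by number. Depth per hashtagged sample was 2149784 to 27903856 UMIs over kept cells, of which T cells held 62910 (positive sort) and 1259227 (negative sort) UMIs. The members and gene lists were chosen with earlier results of these data known.

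T cells were found by the stated rule. State shares carry exact Clopper-Pearson 95% intervals. Shares were compared over samples by two-sided exact permutation tests. Summed counts were tested with edgeR 4.0.16 (TMM, filterByExpr, quasi-likelihood, Benjamini-Hochberg), with DESeq2 1.42.0 as alternative, in R 4.3.3. Tested on simulated counts for the T cell comparison (2623 genes), 4-fold changes were recovered in 87 of 100 raised and 43 of 100 lowered genes, with 10 false calls. The simulation gave genes of like level the same spread and held no single cells with many UMIs. It therefore does not give the recovery in the real counts. Tests within T cells were designed for samples with at least 10 T cells. No positive sample had them, so state shares, median UMIs and Trbv use were not tested, and the gene test used at least 3. The naive share used Ccr7, Lef1 and Tcf7, a set chosen after seeing the data, and some genes are not reported here.

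Named genes followed a rule: up to 12 each way past the threshold, else the 5 each way with the smallest p. For T cells against other cells they were the 20 largest differences with a UMI in at least 20% of T cells, and for CD8 against CD4 the 10 each way in at least 10% of either. List genes and the 5 leading Trbv genes could also be named. Alternatives covered hashtag ratio, UMI and mitochondrial limits, exclusions, thinning, normalization, filters, a replicate block and leaving out each sample. The matrices shared 9 barcodes between the iia-injection library and intracardiac bone samples. Sequences were copied from the deposited hashtag description.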

Additional observations from a re-analysis of the deposited data

Results flagged for a closer look

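The T cell share of positive sample 4 was 2.01%, far from the other 5 positive samples, which lay between 0.206% and 0.628%. It rests on 5 T cells among 249 kept cells, and without that sample the sorts did not overlap. CD4 cells were 29.4% of the T cells of negative sample 5, against 6.25% to 11.6% in the other 5 negative samples. The level of Tox in T cells of the same sample was 914 CPM, against 391 to 571 CPM in the others. These were 3 of 46 groups of values looked at in this way, 2 of them of negative 5, and chance marks about 1 group in 20.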

How the results depend on the processing

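The lower T cell share of positive cells kept its direction and its side of the threshold under 10 other cell and gene settings (differences of -2.13 to -1.11 percentage points, exact permutation p = 0.00433 to 0.00866) and without each sample in turn (-2.24 to -1.75). Whether same-numbered samples came from the same mouse is not given in the labels. Their counts deviated together with r of 0.0816 to 0.617, over 0.1 in 5 of 6, and 3 of 6 matched their own number best. With the replicate block (sign flips over same-numbered pairs) the difference was -1.96 with p = 0.0312, the smallest that 64 sign assignments give (exact test). In an edgeR test of cell numbers the log2 fold was -2.39 without and -2.38 with the block.

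The T cell share of T and B cells lay between -10.2 and -5.89 points without each sample in turn, and passed without positive 5 (-10.2). The intracardiac bone difference lay between -3.29 and -0.227. The difference between the experiments, 0.243 points, changed sign without intracardiac pair 1 (-0.815) or 2 (-0.0634), and ranged up to 1.21.

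The count of genes called between the sorts in T cells was 0 without each sample in turn, 1 with DESeq2 (Ctsb), 1 with the replicate block (S100a8, lower), 1 without cells holding any of 8 markers of other types (Tmsb4x, lower) and 319 with no filter on low counts (50 higher, 269 lower, of 14791). The cause was not tested. Thinning to 1000 UMIs moved the naive share from 19.0% to 5.97%, the cytotoxic share from 66.5% to 51.6% and the regulatory share from 4.40% to 2.12%. The planned within-T alternatives that compare the sorts (state shares, median UMIs, Trbv use, at least 20 T cells for genes) were not run, for lack of positive samples with 10 T cells. The limits are 21 positive T cells, at most 7 in a sample.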

Other observations

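Interferon and early-response genes passed the same rule in shares that lay near or below those over all tested genes, of which 10.2% were higher and 8.49% lower, so the counts show nothing particular to them. Of 18 interferon-stimulated genes, 2 were higher in T cells by a mean of at least 2-fold and higher in 6 of 6 negative samples, and 1 was lower by that rule. The median difference was 0.65 against 0.22 over all tested genes. Ifi47, an interferon-induced GTPase gene, was in 25.9% of T cells and 6.97% of B cells. Of 18 immediate early and stress genes, 1 was higher and 1 lower. Of 12 inhibitory receptor genes, 4 were in at least 10% of negative T cells. Over all genes this number was 4010, with 32285 genes in the matrix and 9456 tested for a level, so the count is not taken as particular to this list. Beside Tox, Cd96 was in 16.9%, Entpd1 in 13.0% and Cd160 in 11.2%, while Pdcd1 was in 9.23%, Tigit in 8.79% and Havcr2 in 3.08%. In this list 6 genes were higher in T cells by a mean of at least 2-fold and higher in 6 of 6 samples, beside 10.2% of all tested genes.

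NK receptor genes were found in a part of the T cells. Of 13 genes, 9 were higher by a mean of at least 2-fold and higher in 6 of 6 negative samples. By the same rule 2 were lower, Fcer1g (-2.25) and Tyrobp (-2.70), adaptor genes that myeloid cells also use. Over all tested genes 10.2% were higher. Klrd1, which encodes CD94, was in 31.4% of T cells and 0.613% of B cells, Klrk1 (NKG2D) in 23.1% and 0.230%, and Ncr1, a defining NK cell gene, in 4.40% and 0 of the B cells. Among chemokine receptors, Ccr2 was in 16.7% of T cells, and Cxcr4, which holds cells in marrow, was in 8.35% of T cells against 21.3% of other cells.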
